A study of Mus musculus with 6 samples.

Results

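Matrix metalloproteinase genes, the genes of their tissue inhibitors (TIMPs) and the sheddase gene Adam8 were followed in RAW264.7 macrophages with and without titanium (Ti) particles. The set was named gene by gene: Mmp8, Mmp9, Mmp12, Mmp13, Mmp14, Mmp19, Timp1, Timp2, Timp3 and Adam8, 10 of the 55536 annotated genes, with 39 of 141862 annotated transcripts. RAW264.7 is a mouse macrophage line transformed by Abelson leukaemia virus and widely used for inflammatory activation and osteoclast formation. The labels give its background strain as C57BL/6, although the line is generally described as derived from BALB/c mice. Control cells received PBS and treated cells received Ti particles, with 3 libraries of total RNA in each group. Both groups are the same line with no other treatment named; the sources used here give neither dose nor duration, and do not say whether the libraries of a group came from separate cultures, so the p-values reflect no more than the variation among these samples, possibly all of it technical.

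Matrix metalloproteinases (MMPs) are zinc-dependent proteases that cleave collagens, elastin, laminins and many cytokines and chemokines. They are made as inactive proenzymes, and the TIMPs block active enzyme by binding the catalytic zinc site. In macrophages Mmp12 (macrophage elastase) and Mmp9 (gelatinase B) are the best known members, and debris of implants taken up by macrophages is studied as a trigger of bone loss around the implant, in which matrix proteases take part.

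The promoters of Mmp12, Mmp13 and Timp1 are shown because AP-1 sites beside a TATA box are the textbook arrangement of inducible MMP promoters, and because Mmp12 and Timp1 were the tested members with separated groups. The windows run from 250 bases before to 50 bases after the RefSeq start on build GRCm38.p6, all on the plus strand: Mmp12 at chr9:7347124-7347423, Mmp13 at chr9:7272264-7272563 and Timp1 at chrX:20869916-20870215. Capitals mark matches on either strand to the AP-1 motif TGANTCA, the TATA motif TATAAA and the ETS motif AGGAAG.
Mmp12: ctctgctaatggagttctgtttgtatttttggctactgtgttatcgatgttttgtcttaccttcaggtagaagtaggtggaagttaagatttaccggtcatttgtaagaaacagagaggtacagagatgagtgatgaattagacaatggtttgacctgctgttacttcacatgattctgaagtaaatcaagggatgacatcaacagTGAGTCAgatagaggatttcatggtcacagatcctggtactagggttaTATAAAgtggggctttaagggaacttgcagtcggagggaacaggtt
Mmp13: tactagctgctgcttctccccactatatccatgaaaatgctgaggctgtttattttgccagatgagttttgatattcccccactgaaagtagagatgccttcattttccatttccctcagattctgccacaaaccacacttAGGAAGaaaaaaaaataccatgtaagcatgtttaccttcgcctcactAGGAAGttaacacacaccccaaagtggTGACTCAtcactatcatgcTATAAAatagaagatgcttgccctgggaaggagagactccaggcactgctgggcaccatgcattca
Timp1: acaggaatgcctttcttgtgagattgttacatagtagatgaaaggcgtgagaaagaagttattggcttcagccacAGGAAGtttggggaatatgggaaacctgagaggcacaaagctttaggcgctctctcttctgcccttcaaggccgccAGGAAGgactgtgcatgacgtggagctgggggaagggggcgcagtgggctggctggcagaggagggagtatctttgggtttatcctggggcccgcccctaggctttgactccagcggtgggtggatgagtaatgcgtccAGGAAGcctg
In the Mmp12 window the AP-1 match TGAGTCA lay at -44 to -38 from the start base and the TATA match at 4 to 9, downstream of that base. Another Mmp12 window, starting at 7344147 and not printed, held 1 ETS match and no AP-1 or TATA match. In the Mmp13 window the AP-1 match TGACTCA lay at -35 to -29 and the TATA match at -16 to -11, with 2 ETS matches farther upstream. The Timp1 window held 3 ETS matches and no exact match to either of the other motifs, and the 3 motifs do not overlap each other in these windows. Near matches were not searched. The RefSeq table held 9 windows for 8 of the 10 genes; 2 of the 9 matched AP-1, 3 matched TATA, 6 matched ETS and 0 matched the kappaB motif. Of all 32851 windows of this length 7.81% held the AP-1 motif, 13.6% the TATA motif, 35.4% the ETS motif and 4.51% the kappaB motif. A match of letters says nothing about occupancy in these cells.

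The values are counts estimated for transcripts. Each was scaled by the ratio of exon length to genomic span and added up over a gene's transcripts to what is called here a rescaled count; the rescaled totals of the 6 libraries ran from 37685950 to 60242851. Levels are given in CPM, the usual depth-scaled unit, here rescaled counts over the TMM-scaled library size. A count of 3, taken as the floor of detection for counting error only, corresponded to 0.0498 to 0.0796 CPM before TMM scaling. Low values of single-transcript coding genes often lay just above multiples of 2, with 48.2% of 1385 values between 1 and 13 within 0.5 above one where an even spread gives 25%, so a rescaled count of 2 may be 1 fragment. The cells carried macrophage RNA, with all 10 macrophage markers tested and a summed level of 5659 to 8834 CPM per library. The 8 fibroblast markers summed to at most 0.328 CPM, the 8 neutrophil markers to at most 0.562 CPM with S100a9, Ly6g, Elane, Camp, Ngp and Ltf at 0 in every library, and the 5 epithelial markers to at most 0.0215 CPM. In a bulk sample, fewer cells that express a gene and less RNA per cell cannot be told apart.

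With Ti particles, 2 of the 4 tested members, both at low levels, were higher in every treated library than in any control library. The same held for 6.63% of the genes tested. The 2 members were Timp1, the secreted inhibitor of most MMPs, by 3.23 ± 0.62 on the log2 scale (SE, n = 3 per group), and the elastase gene Mmp12 by 2.05 ± 0.50. Mmp9, which was not tested, went from at most 3 rescaled counts in control to over 250 in 2 of the 3 Ti libraries. It stayed at 2 in the other, which lay above the highest control library in CPM only (0.0536 against 0.0469). Adam8 and Mmp19, the 2 members with the highest levels, had overlapping groups. Mmp8, Mmp13, Mmp14, Timp2 and Timp3 held at most 18 rescaled counts in any library. Gene by gene, 0 of the 4 members that entered the test passed an edgeR adjusted p of 0.05, where 0.026% of the 15376 genes tested did, and 2 of the 4 had an unadjusted p below 0.05, where 6.76% of all genes did. DESeq2 called 2 of the 4, Timp1 and Mmp12 (adjusted p = 0.000651 and 0.0146), against 1.91% of the genes it gave an adjusted p. Only genes that passed a filter on low counts were tested. Timp1 passed it only through its Ti libraries, and Mmp12 in part through them. The share of 2 in 4 is thus partly set by the filter, and setting it against the shares of all genes decides nothing about the members.

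**Figure D1:**
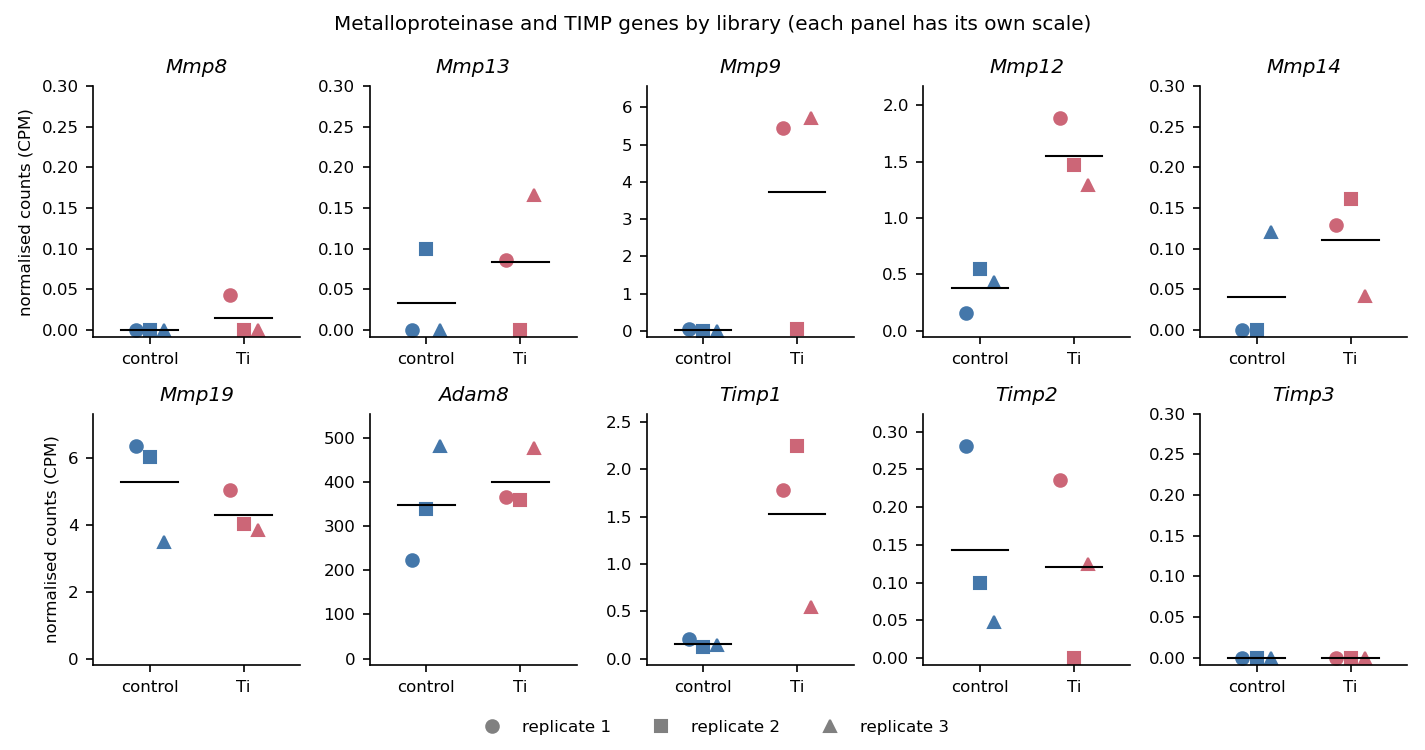
Normalised counts (CPM, vertical axis, linear, a separate scale in each panel) of the 10 genes in the 3 control and 3 Ti libraries; symbols give the replicate number and the line the group mean. The Ti libraries of Mmp12 (1.29 to 1.89 CPM) and Timp1 (0.541 to 2.25 CPM) lie above all control libraries, and Mmp9 reaches 5.45 and 5.72 CPM in 2 Ti libraries (replicates 1 and 3) and stays below 0.1 CPM elsewhere.

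Among the inhibitors, Timp1 (ENSMUSG00000001131, GRCm38 chromosome X, 20870166 to 20874735, plus strand) stood at 13, 5 and 6 rescaled counts in control replicates 1, 2 and 3 and at 83, 84 and 26 in Ti replicates 1, 2 and 3. In CPM these were 0.203, 0.125 and 0.144 against 1.78, 2.25 and 0.541. All Ti libraries lay above all control libraries, and Ti replicate 3 was well below the other two. The group means were 0.157 ± 0.0410 and 1.52 ± 0.883 CPM (SD, n = 3 per group), and edgeR gave an unadjusted p of 0.00180, adjusted to 0.280. Of the genes tested 6.63% had all Ti libraries above all control libraries, and 6.71% had them all below. Timp1 was itself among the genes tested only because of its Ti libraries. Without Ti replicate 3 the log2 fold change was 3.64 and the edgeR adjusted p 0.102; blocking on the replicate number gave 3.08 and 0.387.

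The gene has 2 annotated transcripts with different starts, and most of the difference was in one of them. Timp1-202 (ENSMUST00000115342, starting at 20870166) had 6.19, 4.64 and 5.99 rescaled counts in control replicates 1, 2 and 3, while Ti replicates 1, 2 and 3 had 78.5, 77.5 and 12.0. Timp1-201 stood at 6.83, 0 and 0 against 4.61, 6.09 and 14.4. Ti replicate 3 therefore held about as much of the one as of the other, while Timp1-202 made up 94.4% and 92.7% of the gene in Ti replicates 1 and 2. The transcripts share almost all their sequence, so the division between them is uncertain.

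Timp1 lies inside an intron of Syn1, a synapsin gene on the opposite strand, with 0 shared exon bases. The CPM values of Syn1 were 0.750, 0.648 and 0.264 without Ti and 1.63, 1.39 and 0.645 with it, and edgeR gave a log2 fold change of 1.13 ± 0.53 (adjusted p = 0.778). As for Timp1, Ti replicate 3 was the lowest of the Ti libraries. Whether the counting used strand is not given, so reads of one gene counted for the other cannot be told apart.

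Ti replicate 3 also differed from the other Ti libraries in genes outside the set. The 12 interferon-stimulated genes summed to 597 CPM in it, against 210 to 229 CPM in the other Ti libraries and 209 to 254 CPM in control. The 8 osteoclast markers did not move together: Dcstamp, needed for the fusion of osteoclast precursors, was highest in both libraries numbered 3, at 11.6 CPM in control and 15.6 CPM with Ti, against 5.44 to 6.03 and 9.42 to 12.1 CPM in the others. The osteoclast gene Acp5, the tartrate-resistant acid phosphatase, was lowest there, at 1.58 CPM in control and 2.93 CPM with Ti, against 8.53 to 9.85 and 22.4 to 23.7 CPM in the others. The collagenolytic cathepsin gene Ctsk had 1.97, 2.06 and 0.458 CPM with Ti, also lowest in replicate 3, and 0.954, 0.898 and 0.431 CPM in control. The part of these differences in the Timp1 values was not tested.

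Timp2 (chromosome 11, 118301069 to 118355740, minus strand), which inhibits MMPs and also takes part in the activation of pro-MMP2 by Mmp14, was low, at 18, 4 and 2 rescaled counts in control and 11, 0 and 6 with Ti. Its groups overlapped and it was not tested, because the filter on low counts removed it. Timp3 (chromosome 10, 86300372 to 86349506, plus strand), the inhibitor bound to matrix that also blocks ADAM17, was at 0 in each of the 6 libraries for all 4 of its annotated transcripts. At 3 counts this allows up to 0.0796 CPM in the shallowest library, for annotated transcripts only. Timp1 thus made up 75.8% to 92.5% of the summed length-normalised TIMP level in control and 95.0% to 100% with Ti.

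Among the proteases, Mmp12 (ENSMUSG00000049723, chromosome 9, 7344381 to 7369499, plus strand) stood at 10, 22 and 18 rescaled counts in control replicates 1, 2 and 3 and at 88, 55 and 62 in Ti replicates 1, 2 and 3, or 0.156, 0.549 and 0.431 against 1.89, 1.47 and 1.29 CPM. The groups did not overlap, and the 3 Ti libraries were close to each other. The group means were 0.379 ± 0.201 and 1.55 ± 0.307 CPM (SD, n = 3 per group), and edgeR gave an unadjusted p of 0.00588, adjusted to 0.425. The log2 fold change was 1.65 to 2.42 with 1 library left out at a time and 2.14 when blocked on the replicate number (edgeR adjusted p = 0.468).

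Mmp12 has 7 annotated transcripts, of which 2 had any value. The coding transcript Mmp12-201 (ENSMUST00000005950, starting at 7347374, the start base of the promoter window printed above) stood at 6.06, 4.13 and 11.6 in control and at 70.0, 50.4 and 51.8 with Ti. The retained-intron transcript Mmp12-206 stood at 4.36, 18.3 and 6.54 in control and at 18.3, 4.80 and 10.5 with Ti, so its groups overlapped. Mmp12-201 was 18.4% to 63.9% of the gene's rescaled counts in control and 79.3% to 91.3% with Ti. With coding transcripts only, the log2 fold change of Mmp12 was 3.03 ± 0.57 and its edgeR adjusted p 0.259. The 2 transcripts with an upstream start, Mmp12-203 and Mmp12-207, were at 0 in every library.

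Mmp9 (ENSMUSG00000017737, chromosome 2, 164940780 to 164955850, plus strand), the gelatinase of macrophages, neutrophils and osteoclasts, was at 3, 0 and 0 rescaled counts in control and at 254, 2 and 275 in Ti replicates 1, 2 and 3, or 5.45, 0.0536 and 5.72 CPM in the Ti libraries. Ti replicate 2 sat at the floor with the controls. The full-length coding transcript Mmp9-201 was at 0 in all control libraries and in Ti replicate 2, and at 250 and 274 in Ti replicates 1 and 3. What was counted in control replicate 1 and Ti replicate 2 came from the retained-intron transcript Mmp9-202 alone. The filter on low counts removed Mmp9 because only 2 libraries held counts above it. An exact two-sided permutation test of the CPM values gave p = 0.10, the smallest that 3 against 3 libraries allow, but in rescaled counts Ti replicate 2 (2) lay below control replicate 1 (3), so the order of these 2 libraries came from scaling. With a mean of at least 50 counts as the filter Mmp9 entered the fit at 7.41 ± 1.91 on the log2 scale (edgeR adjusted p = 0.424). Without control replicate 1 it was 10.33 (edgeR adjusted p = 0.917) and without Ti replicate 2 it was 7.98 ± 0.87 (edgeR adjusted p = 0.127), so single libraries move this value, which also depends on how zeros are treated. The neutrophil markers summed to 0.279, 0.562 and 0.520 CPM in Ti replicates 1, 2 and 3, and 0.125, 0.474 and 0.0479 CPM in control replicates 1, 2 and 3; their part in the Mmp9 values was not tested.

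**Figure D2:**
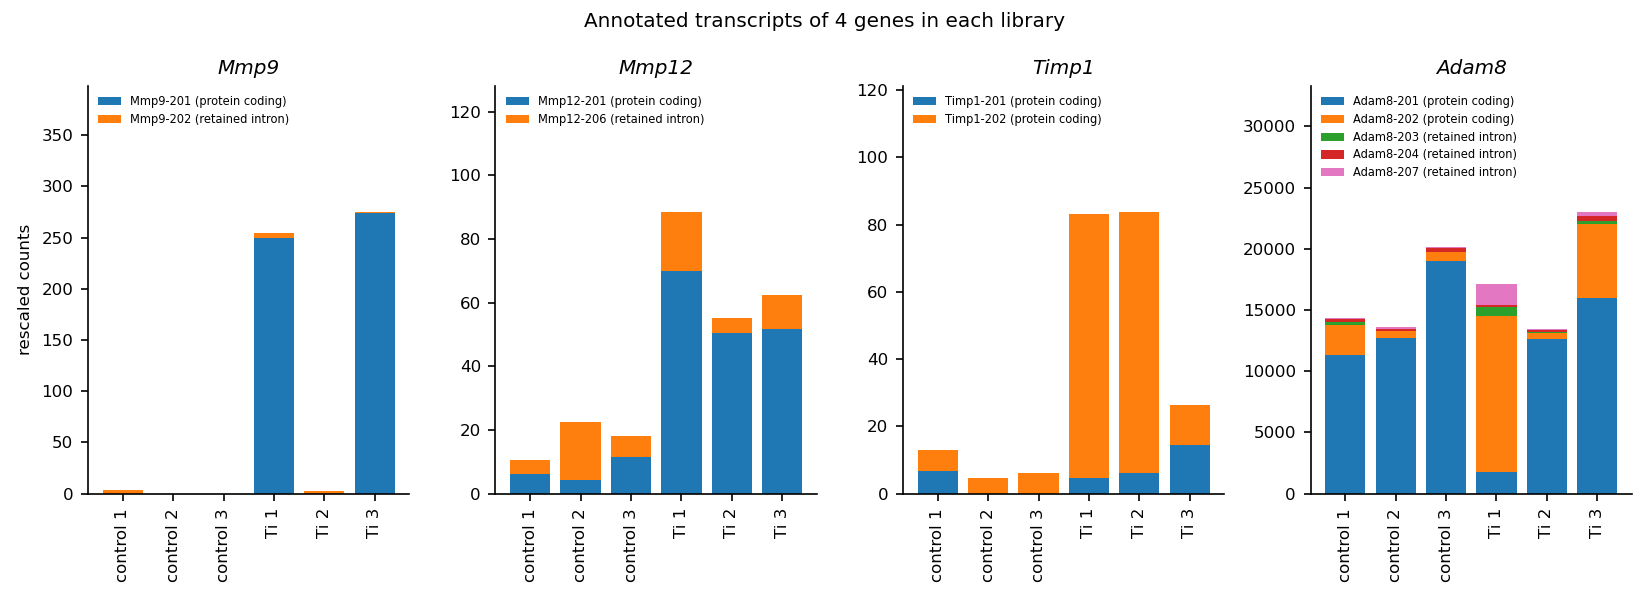
Rescaled counts (vertical axis, linear, a separate scale in each panel) of the annotated transcripts of Mmp9, Mmp12, Timp1 and Adam8 in each library, stacked; transcripts of Adam8 below 100 in every library are left out. Mmp9-201 is present in Ti replicates 1 and 3 only, Mmp12-201 is above 50 in each Ti library, and the split of Adam8 between 201 and 202 differs most in Ti replicate 1.

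Mmp8 and Mmp13, collagenases that can cut triple-helical collagen, lie with Mmp12 in a cluster of MMP genes on chromosome 9 and were near 0. Mmp8 (7558456 to 7568485, plus strand) had 2 rescaled counts in Ti replicate 1 and 0 in the other 5 libraries. Mmp13 (7272514 to 7283331, plus strand) had 0, 4 and 0 in control and 4, 0 and 8 with Ti, so its groups overlapped. Its promoter window, printed above, holds both the AP-1 and the TATA motif, as does the printed one of the Mmp12 windows. Mmp14 (chromosome 14, 54431612 to 54445364, plus strand), a membrane-anchored MMP, stood at 0, 0 and 5 in control and at 6, 6 and 2 with Ti. The 5 counts were assigned to the coding transcript Mmp14-206 and those of the Ti libraries all to Mmp14-205, a single-exon retained-intron transcript, so no Ti library held a count in a coding transcript of Mmp14. No difference in these 3 genes was detectable at this depth.

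Mmp19 (chromosome 10, 128790910 to 128800824, plus strand), a secreted MMP that cleaves basement membrane proteins, stood at 6.36, 6.01 and 3.48 CPM in control and 5.04, 4.02 and 3.85 CPM with Ti. The groups overlapped, with means of 5.28 ± 1.57 and 4.30 ± 0.646 CPM (SD, n = 3 per group), and edgeR gave -0.30 ± 0.29 on the log2 scale (adjusted p = 0.938). Both coding transcripts were present in every library. Mmp19-201 stood at 355, 180 and 98.6 rescaled counts in control and 182, 105 and 127 with Ti, and Mmp19-203 at 45.8 to 60.5 in control and 45.1 to 56.4 with Ti. In these counts, which are not scaled for depth, the spread between libraries was mostly in Mmp19-201. Its highest value was in control replicate 1, the deepest library. Its exons share 789 bases with Tmem198b on the opposite strand, which had 4.36 to 5.90 CPM in control and 3.13 to 5.53 CPM with Ti, so part of either value may belong to the other gene.

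Adam8 (ENSMUSG00000025473, chromosome 7, 139978932 to 139992562, minus strand), a membrane-anchored protease of leukocytes and osteoclasts that sheds surface proteins, was by far the most abundant member. Its CPM values were 224, 339 and 483 without Ti, in the order of the replicate numbers, and 368, 359 and 478 with Ti. The groups overlapped and the libraries numbered 3 were the highest of both. The means were 349 ± 130 and 401 ± 66.1 CPM (SD, n = 3 per group), and edgeR put the difference at 0.20 ± 0.29 on the log2 scale (adjusted p = 0.967). Without control replicate 1 it was -0.034, the only negative value with 1 library left out, so its sign rested on that library. Without control replicate 3 it was 0.52, the highest of these values.

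The 8 annotated transcripts of Adam8 all had a value in at least 1 library, and 2 nearly identical full-length coding transcripts held most of it. Adam8-201 made up 78.8%, 93.7% and 94.3% of the gene in control replicates 1, 2 and 3 and 10.4%, 94.2% and 69.6% in Ti replicates 1, 2 and 3. Adam8-202 made up 17.3%, 3.88% and 3.45% in control and 74.1%, 3.87% and 26.3% with Ti. Ti replicate 1 was thus the one library where Adam8-202 was the larger, and Ti replicate 2 was like the controls. Exon lengths of 3100 and 3117 bases differ so little that the division between the 2 is uncertain, and the groups overlapped. The retained-intron transcript Adam8-207 stood at 107 to 148 rescaled counts in control and at 1700, 54.3 and 323 in Ti replicates 1, 2 and 3, again highest in Ti replicate 1.

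Levels of different genes were compared on a length-normalised scale, the deposited value of each transcript over its genomic span, summed per gene and scaled by that sum over all annotated transcripts of the library (ppm). On this scale Adam8 ranked 605th of 26176 genes with any level, and averaged 153 ± 66.9 in control and 176 ± 43.0 with Ti (SD, n = 3 per group). Mmp19 came next at 2.19 ± 0.454 and 1.97 ± 0.517. In control, the length-normalised levels of Timp1 (0.224 ± 0.0654) and Mmp12 (0.121 ± 0.0610) followed and all but touched, Timp1 at 0.160 to 0.291 and Mmp12 at 0.0508 to 0.159. With Ti, Timp1 (0.854 to 2.86), Mmp19 (1.54 to 2.54) and Mmp9 (0.159 to 2.61) overlapped, so their order cannot be given, and Mmp12 (0.453 to 0.688) lay below Timp1 and Mmp19. Mmp13, Mmp14 and Timp2 were between 0 and 0.117 in every library, and overlapped each other.

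**Figure D3:**
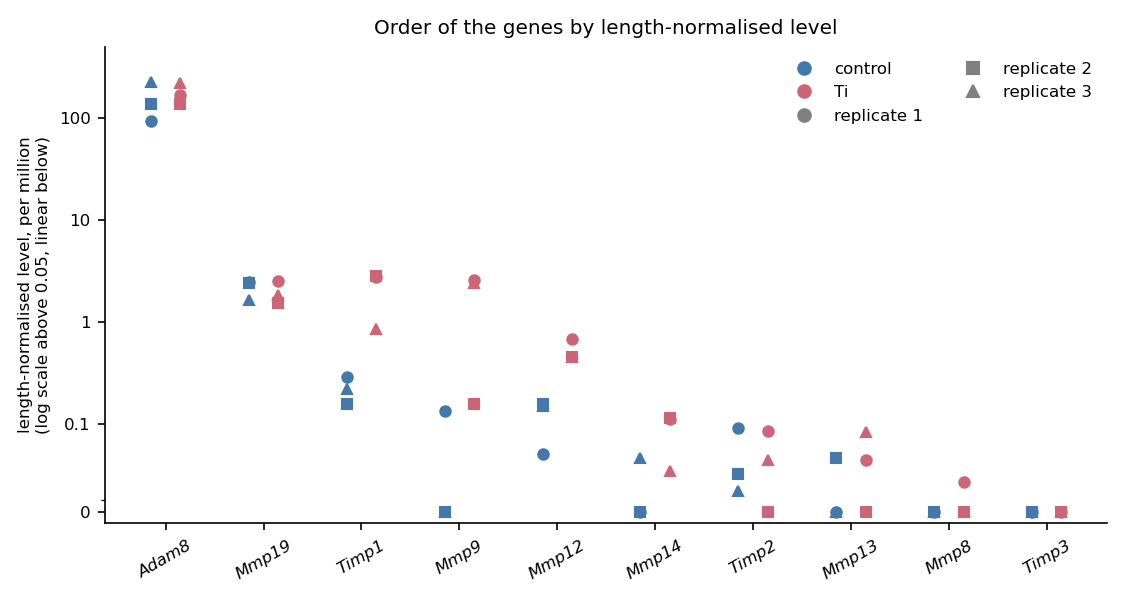
Length-normalised level (vertical axis, ppm, log scale above 0.05 and linear below) of each gene in each library, genes ordered by their mean over the 6 libraries. Adam8 stands apart at 94.9 to 226, Mmp19 is at 1.54 to 2.54 in both groups, and the Ti values of Timp1 (0.854 to 2.86) and Mmp12 (0.453 to 0.688) lie above their control values.

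The make-up of the MMP RNA differed between libraries on the same length-normalised scale. Mmp19 made up 89.2% to 93.0% of the summed level of the 6 MMPs in control, and 42.2%, 67.8% and 37.8% in Ti replicates 1, 2 and 3. Mmp9 made up 43.3%, 7.03% and 50.2% of the sum in the Ti libraries and 5.09%, 0% and 0% in control, and Mmp12 9.52% to 20%, against 1.92% to 8.21% for Mmp12 in control. The summed MMP level over the summed TIMP level was 6.91, 13.7 and 7.75 in control and 2.12, 0.792 and 5.40 with Ti, lower in each Ti library than in any control library. This ratio is one of RNA levels. Timp1 made up 75.8% to 100% of its TIMP part, so the separation of the ratio is not independent of that of Timp1. In control the TIMP part rests on the few counts of Timp1 and Timp2 given above. The lowest ratio, in Ti replicate 2, goes with the highest Timp1 level and no coding Mmp9, and the highest of the Ti ratios, in Ti replicate 3, with the lowest Timp1 level and Mmp9 present.

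The other genes of these families were described from lists. None of 17 further MMP genes and Timp4 entered the test; 8 of these 18 genes were at 0 in every library, and the highest value was 30 rescaled counts, of Mmp24 in control replicate 1. Mmp2 had at most 4 rescaled counts and Mmp3 at most 2. Of 19 further ADAM, ADAMTS and regulator genes 9 were tested, 6 with positive and 3 with negative log2 fold changes, a median of 0.0023 against 0.0053 over all genes tested, and 0 passed. The 4 with the smallest p were Adamts10 (-0.67 ± 0.21), Rhbdf2 (0.82 ± 0.30), which guides ADAM17 to the cell surface, Adamts1 (0.49 ± 0.45) and Rhbdf1 (0.28 ± 0.25), with edgeR adjusted p of 0.593 to 0.933. The general sheddases Adam10 and Adam17 were abundant, and their CPM ranges overlapped between the groups, with log2 fold changes of -0.19 ± 0.26 and 0.00028 ± 0.16.

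Of 18 genes for activation, inhibition and clearance of metalloproteinases 10 were tested, 7 with positive and 3 with negative log2 fold changes and a median of 0.44, and 0 passed. Plaur, the urokinase receptor, had 1.17 ± 0.30 and Lcn2, whose human form binds MMP9, had 4.90 ± 1.33, at 29, 28 and 269 rescaled counts in Ti replicates 1, 2 and 3. Lcn2 was thus high in 1 of the 2 Ti libraries that held Mmp9. Pcsk7, a proprotein convertase, had -1.32 ± 0.47. Furin, the convertase that activates Mmp14 and many ADAMs, had 0.025 ± 0.14, and Reck, a membrane inhibitor of MMPs, was at 0 in all but Ti replicate 3, where it had 2 rescaled counts.

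The list of cathepsins, cystatins and legumain gave 11 of 12 genes tested, 8 with positive and 3 with negative log2 fold changes and a median of 0.21, and 0 passed. Lgmn, the lysosomal protease legumain, had means of 322 ± 10.3 CPM without and 220 ± 16.3 CPM with Ti (SD, n = 3 per group), or -0.55 ± 0.09 on the log2 scale (edgeR adjusted p = 0.218). Ctsl, Ctsz and the cystatin gene Cstb had 0.33 ± 0.09, 0.27 ± 0.10 and 0.39 ± 0.15. The list summed to 2788 to 4548 CPM per library. Of 14 matrix substrate genes 3 were tested, all with positive log2 fold changes and 0 past the threshold: Spp1, the osteopontin gene (1.01 ± 0.48), Lamc1 (0.20 ± 0.14) and Vcan (0.024 ± 0.40); 7 of the 14 were at 0 throughout.

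**Figure D4:**
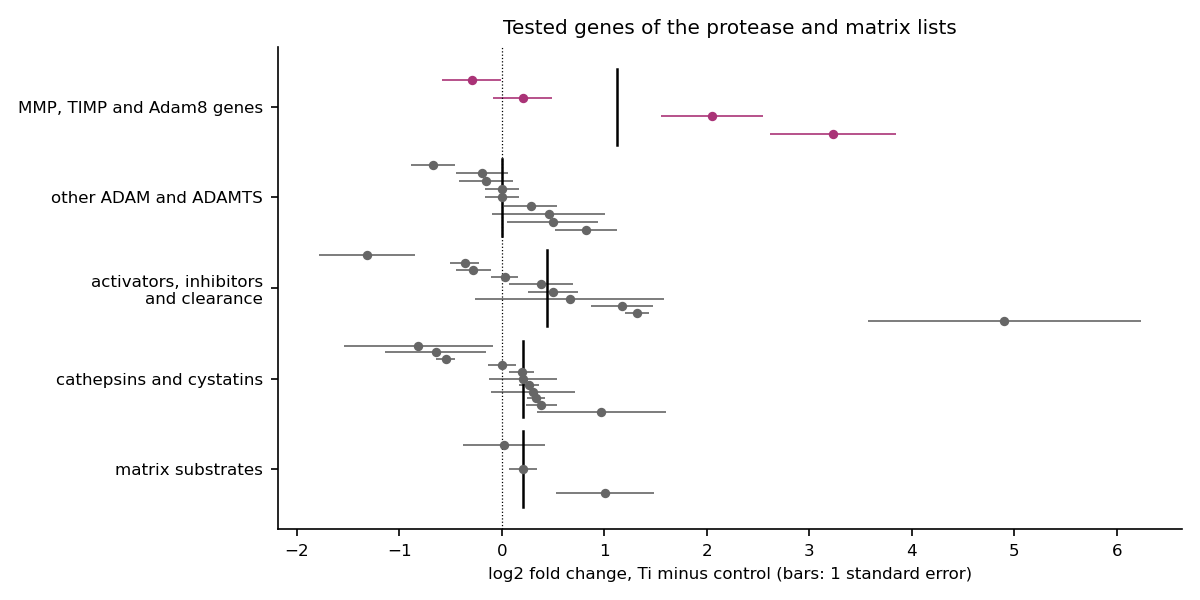
Log2 fold change of Ti minus control (horizontal axis) with its standard error for each tested gene of the MMP, TIMP and Adam8 set and of 4 other lists; the upright black line is the median of a list. Timp1 and Mmp12 lie at 3.23 and 2.05, and the point near 4.90 is Lcn2.

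The 4 tested members kept their order under each other setting in which all 4 could be fitted. The log2 fold change of Timp1 ran from 2.84 to 3.64 and that of Mmp12 from 1.65 to 3.03, while Mmp19 ran from -0.52 to -0.14 and Adam8 from -0.034 to 0.52. In all 11 edgeR fits other than the reported one the adjusted p of Timp1 stayed between 0.102 and 0.650 and that of Mmp12 between 0.259 and 0.785.

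**Figure D5:**
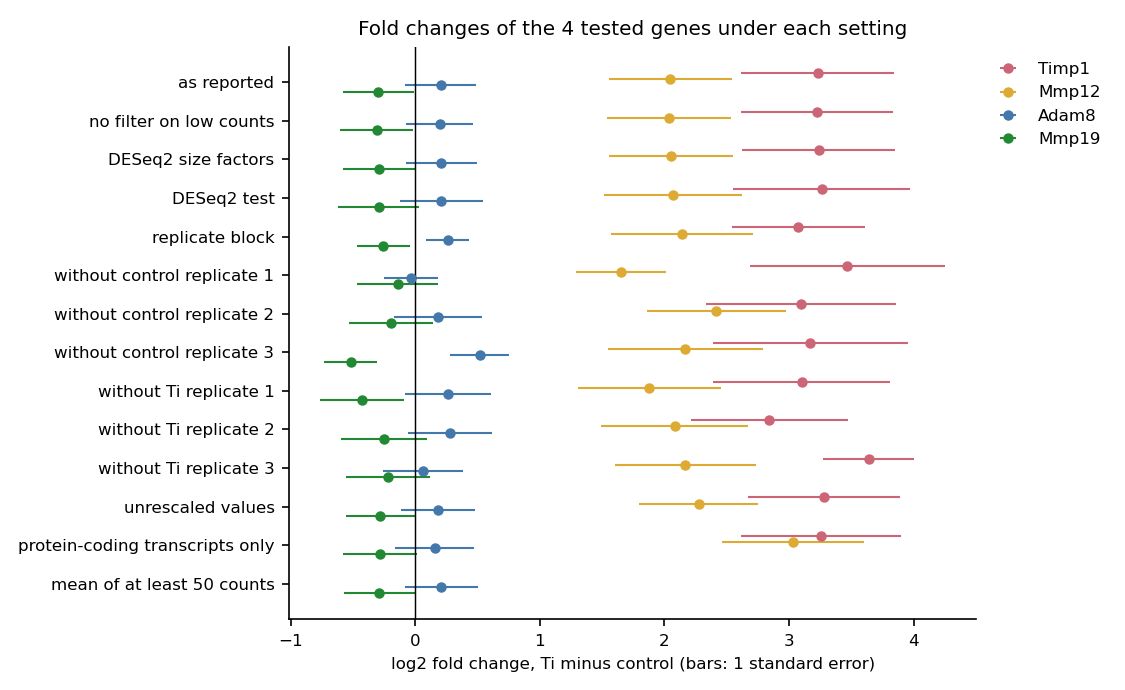
Log2 fold change of Ti minus control (horizontal axis, bars of 1 standard error) of the 4 tested genes in the fit as reported and under each other setting. Timp1 and Mmp12 are above 1.6 in each fit that held them; Adam8 and Mmp19 lie near 0, and a filter on a mean of at least 50 counts leaves Timp1 and Mmp12 out.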

How the data were processed

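Total RNA of RAW264.7 cells was profiled in 6 libraries, 3 given PBS and 3 given Ti particles, grouped by their labels. The authors deposited estimated counts of transcripts, 187351 rows for each library. HISAT2, StringTie and the build mm9 are listed in the submitters' processing notes; the sources used here name neither versions nor a counting tool. In all, 141862 rows match transcript IDs in GENCODE vM21 (build GRCm38), from which names and coordinates were taken. The other 45489 rows, assembled transcripts with no Ensembl ID, were left out. They hold 36.9% to 51.2% of the deposited totals, the most in Ti replicate 1. Whether any of them lie at the loci of the members was not examined, so zeros and transcript shares hold for annotated transcripts only.

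Deposited values grew with genomic span: their lower quartile above 0 was 3 where span equalled exon length and 256 where it was 102 times as long (median). Each estimated count was therefore multiplied by exon length over span, summed per gene and rounded, an approximate correction. Genes were tested across the whole table with edgeR 4.0.16 (quasi-likelihood, TMM, filterByExpr, Benjamini-Hochberg at 0.05) in R 4.3.3, and with DESeq2 1.42.0 as an alternative. The edgeR step was also run on counts simulated from the means and dispersions of these data, which does not test the rescaling. A standard error is the size of the log2 fold change over the square root of F. Python 3.11.15, pandas 2.3.3 and matplotlib 3.10.9 served for tables and figures. Promoters came from RefSeq (GRCm38.p6).

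The members, lists and tests were chosen with earlier results of these data known. All 10 members are named, and of each protease, regulator or matrix list up to 4 tested genes with the smallest p, of which 1 is not reported here; Adam10, Adam17, Furin, Reck, Mmp2, Mmp3, Mmp24, Syn1, Tmem198b, Ctsk, Dcstamp and Acp5 were added after their values were seen. No 2 libraries held identical values, and replicates differed by far more than sampling noise (chi-square per degree of freedom 148 to 497). Same-numbered libraries deviated together (correlations across genes 0.110, 0.144 and 0.266, others -0.170 to 0.0402), so the numbers meet the criterion for pairs (each over 0.1), a reading of the data, since the labels do not say so; the reported fit has no block, and the fit with one is an alternative.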

Additional observations from a re-analysis of the deposited data

How the results depend on the processing

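With the replicate number as a block edgeR called 0 genes higher and 0 lower in place of 2 and 2, and no call of a member changed. DESeq2's test called 163 higher and 129 lower, and only there did Timp1 (3.26) and Mmp12 (2.07) pass. Coding transcripts alone gave 1 and 1, and no filter on low counts gave 2 and 1. With any 1 library omitted, 1 to 8 were called higher and 0 to 7 lower. Without 1 library the log2 fold change of Adam8 ran from -0.034 to 0.52, negative without control replicate 1 (-0.034); the cause was not tested. DESeq2's size factors, unrescaled values and a mean of at least 50 counts kept both counts within 1.5 times of the reported ones (2 to 3 higher, 2 lower), and that last filter removed Timp1 and Mmp12. With no filter, where Mmp8, Mmp9, Mmp13, Mmp14 and Timp2 also entered, the smallest adjusted p among these was 0.683, for Mmp9. Depth limits Mmp8, Mmp13, Mmp14, Timp2 and Timp3, which held at most 18 rescaled counts in any library.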
